A study of Mus musculus with 4 samples.

Results

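The thioredoxin system and the target genes of the transcription factor NRF2 were examined in mouse embryonic stem cells that carry mutations on both alleles of Chd2, against wild-type cells. The group holds 10 genes of 23309 listed by the authors: Txn1, Txn2, Txnrd1, Txnip, Prdx1, Srxn1, Nfe2l2, Nqo1, Gclm and Akr1b8. All 10 were found by symbol and all 10 had a mean of at least 1 FPKM, the filter on low values used here, which 10766 genes passed. The genes were selected on the same values that are described below, the FPKM of mutant and wild-type cells, with earlier results of these data known. Their differences are therefore a description, and no test of their own is given for them.

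RNA was sequenced from 2 libraries of Chd2 mut/mut cells and 2 libraries of wild-type cells, all of strain 129/Ola; the sample titles call the mutant cells Chd2KO. Chd2 encodes an ATP-dependent remodeler of nucleosomes, and embryonic stem cells are pluripotent cells that divide in culture. Cells of both genotypes grew on gelatin with serum and leukemia inhibitory factor, in a medium that contained the reducing agent β-mercaptoethanol. The labels do not say how the mutant line was made, whether it is 1 clone, or whether the lots behind the libraries were separate cultures.

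Thioredoxins are small proteins that reduce disulfides in other proteins, and thioredoxin reductases recharge them with electrons from NADPH. Peroxiredoxins pass electrons from thioredoxin on to peroxides, and Txnip binds reduced thioredoxin and restrains it. NRF2, encoded by Nfe2l2, is held low by its adaptor KEAP1 in unstressed cells. When it accumulates it binds antioxidant response elements and raises genes for thioredoxin recycling, glutathione synthesis and the reduction of quinones and aldehydes.

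The promoter sequences are shown for the genes on which the results turn: first Txnip and Akr1b8, the members that the authors called as changed. They come from RefSeq windows of build GRCm38.p6, which run from 250 bases before to 50 bases after an annotated start. The upstream part of Txnip lies at chr3:96557707-96557956 on the plus strand and that of Akr1b8 at chr6:34353896-34354145 on the plus strand. Capitals mark 2 copies of CACGNG with 5 bases between them, a form of the carbohydrate response element through which glucose-sensing factors of the MondoA family regulate Txnip.
Txnip: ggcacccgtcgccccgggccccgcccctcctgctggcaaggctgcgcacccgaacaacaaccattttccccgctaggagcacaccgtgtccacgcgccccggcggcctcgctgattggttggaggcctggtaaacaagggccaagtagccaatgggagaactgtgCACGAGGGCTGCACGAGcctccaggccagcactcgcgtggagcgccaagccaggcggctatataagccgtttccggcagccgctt
Akr1b8: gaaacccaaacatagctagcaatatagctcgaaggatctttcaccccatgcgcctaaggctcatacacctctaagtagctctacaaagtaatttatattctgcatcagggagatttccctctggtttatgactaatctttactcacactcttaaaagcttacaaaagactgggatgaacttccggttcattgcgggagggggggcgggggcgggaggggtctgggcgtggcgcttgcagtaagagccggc

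In Txnip this form spans bases -85 to -69 from the start. Searched on both strands, it was present in 16 of 32851 promoter windows, or 0.0487%. The form was added after the values were seen, so nothing is read from its rarity. None of the other 9 members held the form in a window. Nothing is read from such an absence either, since the form is rare and other spacings or mismatched copies were not searched. The window of Akr1b8 held neither this form, nor the E-box CACGTG, nor the core of the antioxidant response element.

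The core of the antioxidant response element was searched as TGACNNNGC, which reads GCNNNGTCA when it lies on the opposite strand, and capitals mark it below. It was found in windows of 5 of the 10 members, against 12.4% of all windows and 14% of all genes with a window. The group was assembled in part from NRF2 target genes, so nothing is read from that comparison. The stretches lie at chr4:116685446-116685494 for Prdx1, chr2:152105542-152105570 for Srxn1, chr3:122245403-122245451 for Gclm and chr10:82859094-82859142 for Txnrd1, all on the plus strand, and at chr2:75704875-75704913 on the minus strand for Nfe2l2.
Prdx1: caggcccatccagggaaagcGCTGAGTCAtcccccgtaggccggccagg
Srxn1: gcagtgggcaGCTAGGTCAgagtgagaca
Gclm: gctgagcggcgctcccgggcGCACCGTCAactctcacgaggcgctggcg
Txnrd1: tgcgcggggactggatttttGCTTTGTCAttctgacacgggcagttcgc
Nfe2l2: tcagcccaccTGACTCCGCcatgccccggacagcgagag

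The match lay upstream of the start in 4 of these genes and after it, at bases 29 to 37, in Srxn1. Txnrd1 has 3 annotated starts and held the core at 1 of them. No member held CACGTG in its windows, a motif found in 7.15% of all windows. These are matches of letters within 300 bases, and binding was not measured here.

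**Figure D1:**
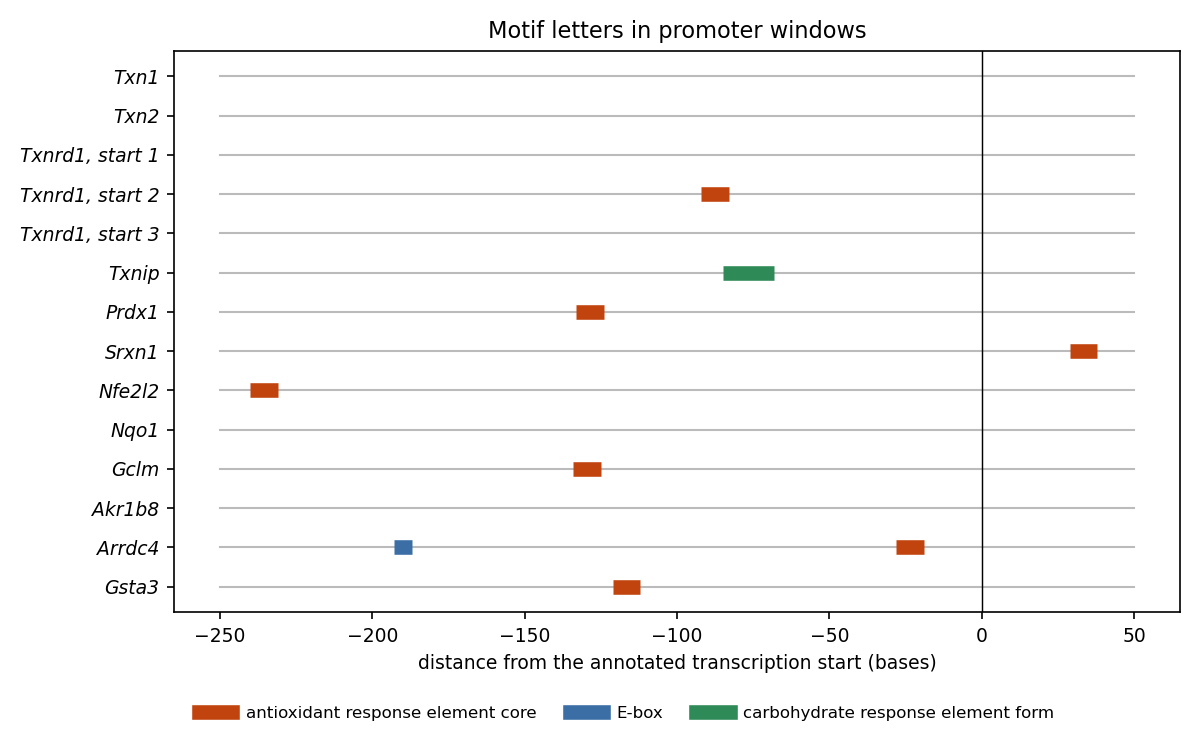
Positions of the 3 searched motifs (coloured blocks) in promoter windows, as distance in bases from the annotated start (vertical line), for the 10 genes and for Arrdc4 and Gsta3; Txnrd1 has 3 starts. The antioxidant response element core appears in 5 of the 10 genes, and the carbohydrate response element form only in Txnip among the 12 genes drawn.

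The values carry no replicate error: the authors gave 1 FPKM per gene and genotype over its libraries, and depth is unknown. FPKM counts sequenced fragments, scaled to transcript length and to the mapped fragments of a library. Chd2 itself was at 5.69 FPKM in mutant cells, against 10.2 FPKM in wild-type cells, with a q-value of 0.0103 in the authors' deposited table, so the mutated gene's transcript was reduced and still present. All 10 embryonic stem cell markers were expressed in both genotypes, with Pou5f1 at 1071 FPKM in mutant cells and 1032 FPKM in wild-type cells. None of the 10 was called, and 7 were higher and 3 lower in mutant cells. Calls were rare over the whole table, at 0.718% of genes with a q-value under 1. Nanog was at 150 FPKM in mutant cells and 114 FPKM in wild-type cells, and Utf1 at 615 and 694 FPKM. The 9 fibroblast or feeder markers summed to 12.6 FPKM in mutant cells and 16.2 FPKM in wild-type cells, most of it Thy1, with Col3a1, Lum and Postn at 0 in both. The 6 endoderm markers summed to 0.929 and 1.17 FPKM in mutant and wild-type cells.

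Of the 10 genes, Txnip and Akr1b8 fell in mutant cells by the authors' call, and no member rose. That is 2 members called of 10, where 81 of 11276 genes with a q-value under 1 were called over the whole table, or 0.718%. Calls for lower RNA made up 0.461% of those genes and calls for higher RNA 0.257%. Since the members were picked from this contrast, nothing is read from that count. On the scale of log2(FPKM + 1), with wild type subtracted from mutant, the median difference was -0.02 over the 10 members and -0.0012 over the 10766 genes kept. In bulk RNA, fewer cells of a kind and less RNA per cell cannot be told apart.

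**Figure D2:**
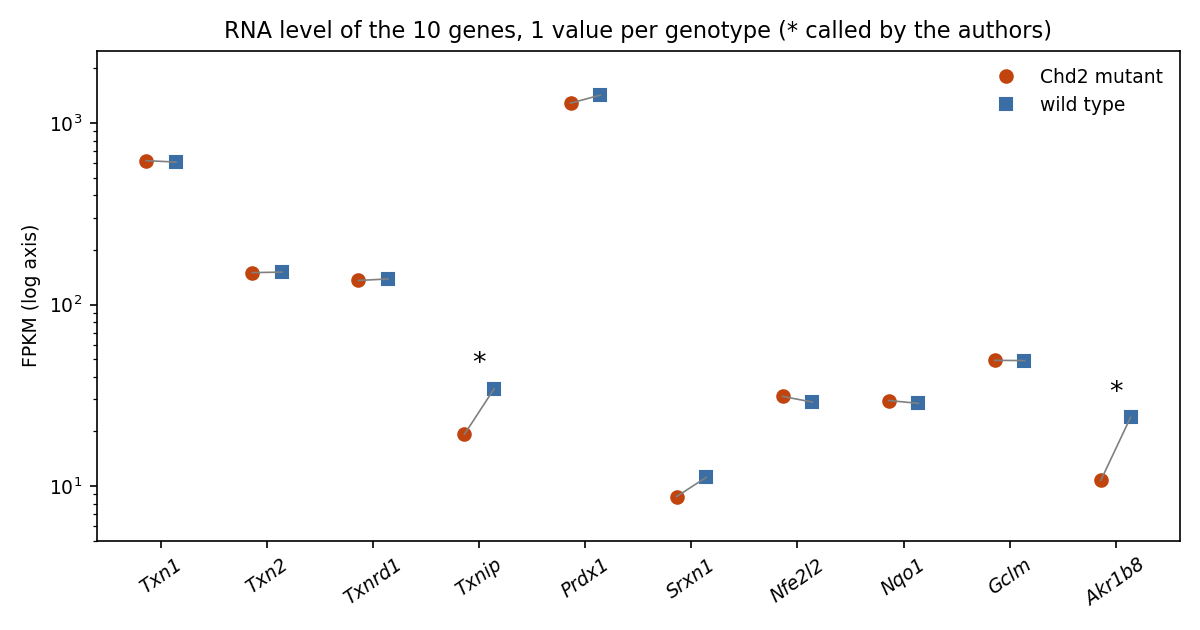
FPKM on a log axis for the 10 genes in Chd2 mutant cells (circles) and wild-type cells (squares), 1 value per genotype with no error bar; an asterisk marks genes called by the authors. Txnip and Akr1b8 are the genes with a steep drop, and Srxn1 shows a smaller one.

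Among the thioredoxins, cytosolic Txn1 was at 620.0 FPKM in mutant cells and 609 FPKM in wild-type cells. Mitochondrial Txn2 was at 149.9 FPKM in mutant cells and 151 FPKM in wild-type cells. Txnrd1, the selenoprotein that reduces cytosolic thioredoxin, was at 136 FPKM in mutant cells and 138 FPKM in wild-type cells. None was called, and the genotypes lay within 2% of each other for all 3 genes. The proportions of these transcripts were likewise close: Txn1 exceeded Txn2 4.14-fold in mutant cells and 4.04-fold in wild-type cells, and Txnrd1 4.57-fold in mutant cells and 4.41-fold in wild-type cells.

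Txnip, the inhibitor, fell. It was at 19.3 FPKM in mutant cells, against 34.3 FPKM in wild-type cells, so that mutant cells held 56.2% of the wild-type RNA. In the authors' deposited table its log2 fold change is -0.83 and its q-value 0.0103, the smallest q there, which 55 genes share. Its difference of log2(FPKM + 1) was -0.80, at rank 82 of 10766 genes kept, counted from the lowest. Txn1 transcripts outnumbered Txnip transcripts 32.2-fold in mutant cells and 17.7-fold in wild-type cells on the FPKM scale.

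Txnip overlaps an antisense gene, Gm15441, with which it shares 18.4% of the 50-base stretches of its longest annotated transcript. The sources used here do not say that counting used strand, so reads in the overlap cannot be assigned with certainty. Gm15441, which is named here with its values known, had 0.182 FPKM in mutant cells and 0.272 FPKM in wild-type cells.

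Of the remaining thioredoxin genes none was called. Of 13 genes in this list 11 were kept, of which 1, Txnip, fell, and 10 were not called. Calls for lower RNA made up 0.461% of all genes with a q-value under 1. Txnip was picked from this contrast, so nothing is read from that count. The median difference of the list was -0.10, but -0.03 either without the filter on low values or when the mean had to reach 5 FPKM, and -0.04 under quantile normalization. The mitochondrial reductase Txnrd2 was at 1.87 FPKM in mutant cells and 2.66 FPKM in wild-type cells. Nxn, which encodes nucleoredoxin, was at 17.4 FPKM in mutant cells and 22.0 FPKM in wild-type cells. Txndc9 was at 17.0 FPKM in mutant cells and 14.1 FPKM in wild-type cells, and the oxidoreductase gene Txndc17 at 65.5 and 73.2 FPKM in mutant and wild-type cells. These uncalled genes thus lay on both sides of wild type. The germ cell genes Txndc2 and Txndc8 were at or near 0 in both genotypes.

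**Figure D3:**
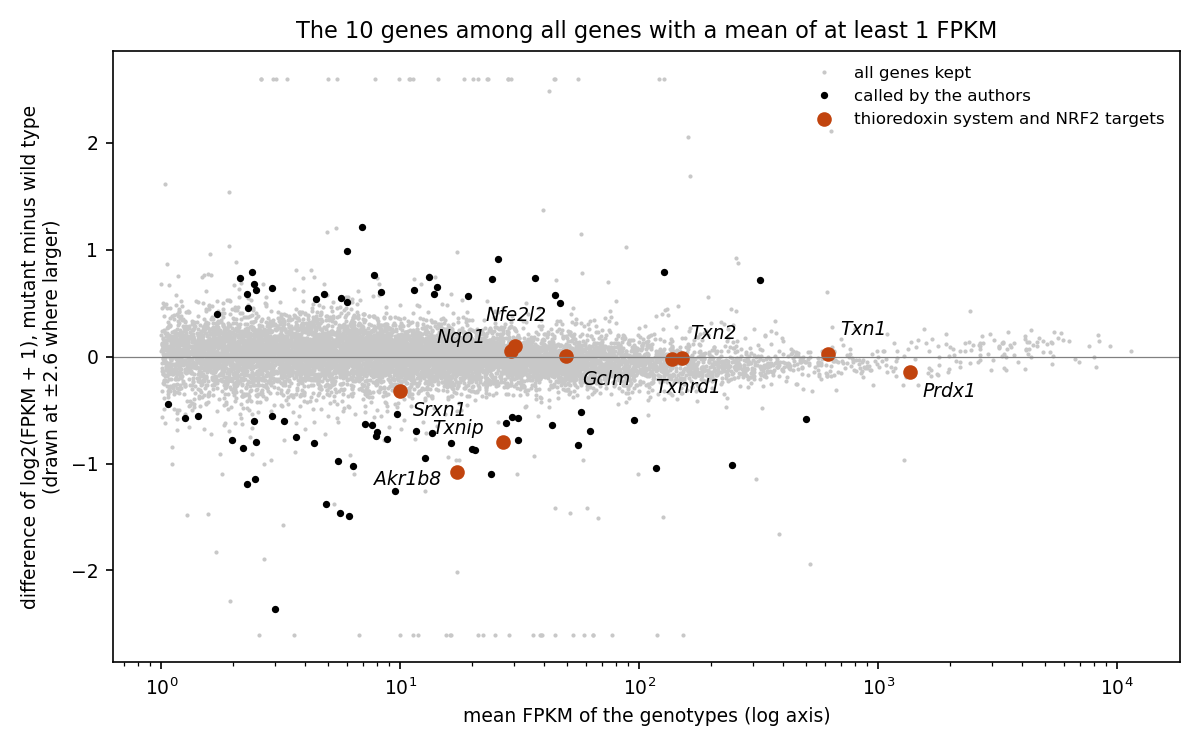
Change in log2(FPKM + 1) of mutant relative to wild-type cells against the mean FPKM of the genotypes (log axis) for 10766 genes (grey), genes called by the authors (black) and the 10 genes described (red, labelled). Genes beyond the drawn range stand at its upper or lower limit. Akr1b8 and Txnip lie at the lower edge of the cloud among called genes, and 7 of the other 8 lie between percentiles 5 and 95 of all genes kept.

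Txnip belongs to the alpha-arrestins, adaptors that direct membrane proteins to internalization. Of its 5 paralogs none was called, and 4 were kept. Nothing is read from that count, since 0.718% of genes with a q-value under 1 were called over the whole table. Arrdc4, which restrains glucose uptake as Txnip does, was at 7.54 FPKM in mutant cells and 12.7 FPKM in wild-type cells, or 59.5% of the wild-type level, with a q-value of 0.299 in the authors' deposited table. Its relative difference was close to that of Txnip in size, and the ratio of Txnip to Arrdc4 was 2.56 in mutant cells and 2.71 in wild-type cells. Arrdc3 lay on the other side, at 16.1 FPKM in mutant cells and 12.8 FPKM in wild-type cells, with a q-value of 0.55 in the authors' deposited table. Arrdc1 was at 7.28 FPKM in mutant cells and 6.34 FPKM in wild-type cells, and Arrdc2 at 3.795 and 4.45 FPKM in mutant and wild-type cells.

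The glucose-sensing activators of Txnip and Arrdc4 differed little in RNA. Mlxip, which encodes MondoA, was at 4.997 FPKM in mutant cells and 5.07 FPKM in wild-type cells. Its partner Mlx was at 25.4 FPKM in mutant cells and 24.0 FPKM in wild-type cells. The related Mlxipl, which encodes ChREBP, stayed below 1 FPKM in both genotypes. The promoter of Arrdc4 held CACGTG at bases -193 to -188 and the antioxidant response element core at bases -28 to -20. The carbohydrate response element form shown for Txnip was not found there. Other versions of that element were not searched, so nothing is read from its absence. The stretch around CACGTG lies at chr7:68749406-68749451 on the minus strand, with the E-box in capitals.
Arrdc4: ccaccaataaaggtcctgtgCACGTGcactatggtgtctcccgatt

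Prdx1, which encodes an abundant cytosolic peroxidase that thioredoxin reduces, had the highest level of the group. It was at 1285 FPKM in mutant cells and 1423 FPKM in wild-type cells, above 99.0% of the genes kept in either genotype. The mutant level was 90.3% of wild type with a q-value of 0.97 in the authors' deposited table. Of its longest transcript, 10.9% of the 50-base stretches also occur in other annotated genes, most of them in a processed pseudogene.

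The other peroxiredoxins were not called either. Nothing is read from that, with 0.718% of genes with a q-value under 1 called over the whole table. The 6 peroxiredoxin genes had a median difference of -0.14, and 5 of 6 lay below 0. Prdx5 was at 64.9 FPKM in mutant cells and 73.0 FPKM in wild-type cells, and Prdx6 at 166 and 185 FPKM in mutant and wild-type cells. Prdx2 was the member above 0, at 305 FPKM in mutant cells and 302 FPKM in wild-type cells. The differences from Prdx1 to Prdx6 were thus small and mostly on the same side, without a replicate spread to set them against. The difference of Prdx1 also depended on the scaling. Under quantile normalization Prdx1 moved from -0.15 to -0.09, and the likewise abundant Txn1 from 0.03 to 0.08. The other peroxiredoxins were not rerun singly. The median of the list of peroxiredoxins, sulfiredoxin and sestrins moved from -0.097 to -0.084 under that setting.

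Srxn1 encodes sulfiredoxin, which repairs peroxiredoxins that peroxide has over-oxidized. It was at 8.76 FPKM in mutant cells and 11.2 FPKM in wild-type cells, the lowest levels of the group in both genotypes. That is 78.4% of the wild-type level, with a q-value of 0.555 in the authors' deposited table. Its difference of -0.32 on the log2(FPKM + 1) scale lay at percentile 3.91 of the genes kept, and it was the largest among the members that were not called. The sestrin genes Sesn1, Sesn2 and Sesn3, whose products act in stress signalling, were not called, with Sesn2 at 32.2 FPKM in mutant cells and 29.5 FPKM in wild-type cells.

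Clients of thioredoxin held no call among 9 genes listed, 6 of them kept. Calls over the whole table were 0.718% of genes with a q-value under 1, so nothing is read from that. The median difference was -0.13, with 2 genes above 0 and 4 below. It was -0.04 without the filter on low values, -0.07 under quantile normalization and -0.15 when the mean had to reach 5 FPKM. The 4 genes named next are those below 0. Rrm1 and Rrm2, the subunits of ribonucleotide reductase, were at 66.2 and 218 FPKM in mutant cells and at 73.6 and 235 FPKM in wild-type cells. Apex1, a DNA repair nuclease with a redox function, was at 32.1 FPKM in mutant cells and 37.2 FPKM in wild-type cells. Msrb1, a selenoprotein that repairs oxidized methionine, was at 42.8 FPKM in mutant cells and 48.9 FPKM in wild-type cells.

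Nfe2l2, the gene of NRF2 itself, was at 31.2 FPKM in mutant cells and 29.0 FPKM in wild-type cells. This was the largest positive difference of the group, 0.10 on the log2(FPKM + 1) scale, and was not called, with a q-value of 0.998 in the authors' deposited table. NRF2 is controlled mainly through protein stability, which RNA levels do not show. Keap1 was at 12 FPKM in mutant cells and 11.1 FPKM in wild-type cells, and Cul3, the ubiquitin ligase scaffold that works with KEAP1, at 40.8 and 39.97 FPKM in mutant and wild-type cells.

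None of the 14 genes of NRF2 and its regulators was called, and 11 were kept. Bach1, a repressor that competes with NRF2 for its sites, was at 7.64 FPKM in mutant cells and 5.49 FPKM in wild-type cells, 1.39-fold higher, with a q-value of 0.157 in the authors' deposited table. Mafg, a small MAF partner of both factors, was at 25.9 FPKM in mutant cells and 21.7 FPKM in wild-type cells. The list's median difference was 0.03, with 8 of 11 genes above 0, against 5343 above and 5423 below among all genes kept.

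Nqo1 and Gclm, both classical NRF2 targets, lay within 4% of wild type and were not called. Nqo1, a quinone reductase that is widely used as a readout of NRF2, was at 29.6 FPKM in mutant cells and 28.5 FPKM in wild-type cells. Gclm, the modifier subunit of the enzyme that limits glutathione synthesis, was at 49.3 FPKM in mutant cells and 49.1 FPKM in wild-type cells. The catalytic subunit Gclc was at 13.02 FPKM in mutant cells and 11.6 FPKM in wild-type cells. Gclm therefore exceeded Gclc 3.78-fold in mutant cells and 4.23-fold in wild-type cells.

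Akr1b8 had the largest difference of the group. It encodes an aldo-keto reductase that reduces aldehydes, described first as a gene induced by fibroblast growth factor. It was at 10.7 FPKM in mutant cells, against 23.9 FPKM in wild-type cells, 2.22-fold lower. The authors' deposited table lists its log2 fold change as -1.15 and its q-value as 0.0103. Its difference of log2(FPKM + 1) was -1.08, at rank 55 of 10766 from the lowest. Among the 52 genes called lower, it held rank 18 by fold change and Txnip rank 35.

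The paralogs beside Akr1b8 on chromosome 6 were not called. Akr1b10 was at 3.38 FPKM in mutant cells and 3.06 FPKM in wild-type cells, so that Akr1b8 exceeded it 3.18-fold in mutant cells and 7.80-fold in wild-type cells. Akr1b7 was listed at 0 in both. Akr1b3, the aldose reductase gene, was listed at 0.00194 FPKM in mutant cells and 1.80 FPKM in wild-type cells with a q-value of 0.972 in the authors' deposited table. Of the 50-base stretches of the Akr1b3 transcript 86.2% also occur in other annotated genes, so its level is uncertain. For Akr1b8, 3.21% of all stretches occur in other genes, and 2.37% of all stretches occur in other Akr1b genes. Of the 17 aldo-keto reductase genes listed 6 were kept, and Akr1b8, picked from this contrast, was the 1 called. Calls for lower RNA made up 0.461% of all genes with a q-value under 1, and nothing is read from that count. The other aldo-keto reductase genes with the largest differences were Akr1e1, at 4.41 and 5.79 FPKM in mutant and wild-type cells, and Akr1a1, at 304 and 340 FPKM.

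**Figure D4:**
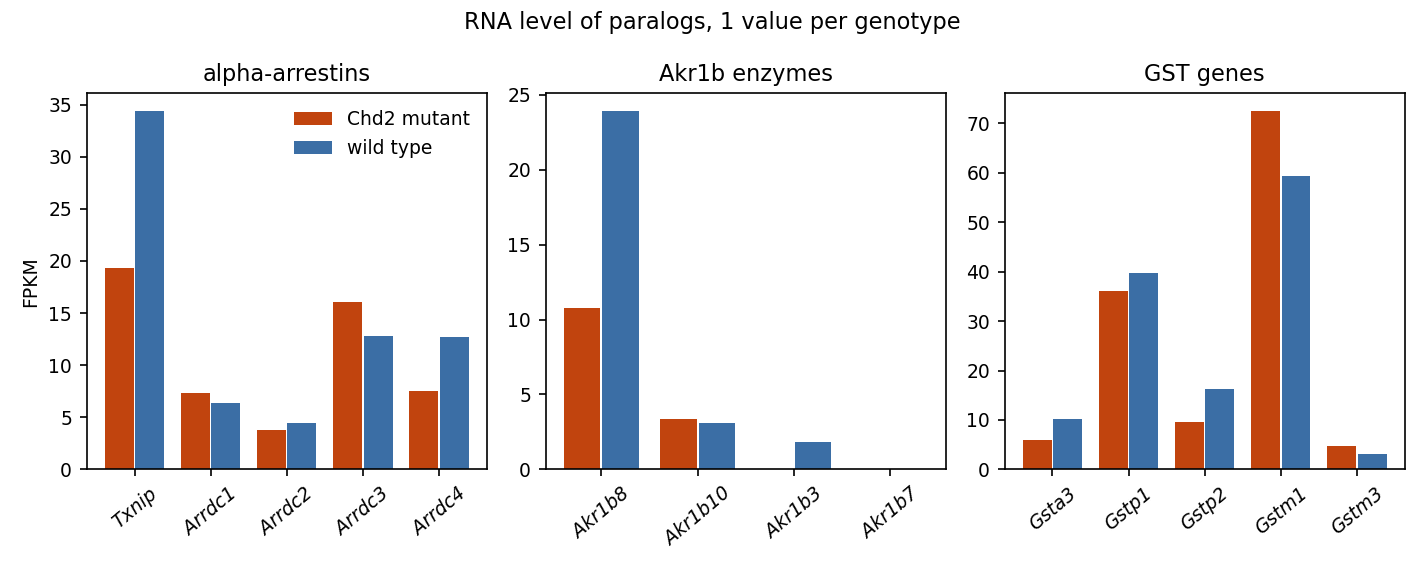
FPKM (linear axes from 0, a separate scale per panel) of alpha-arrestins, Akr1b enzymes and selected glutathione S-transferases, with Chd2 mutant bars left of wild-type bars and 1 value per bar. Txnip, Arrdc4, Akr1b8, Gsta3 and Gstp2 are lower in the mutant, while Arrdc3, Akr1b10, Gstm1 and Gstm3 are higher; of these, Txnip, Akr1b8 and Gsta3 were called.

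Across a wider list of 39 NRF2 targets, 2 fell, Akr1b8 and Gsta3, none rose, and 37 were not called, where calls for lower RNA made up 0.461% of genes with a q-value under 1. Akr1b8 was picked from this contrast, so nothing is read from that count. The 33 targets kept had a median difference of -0.0030, with 16 above 0 and 17 below. Gsta3, which encodes a glutathione S-transferase, was at 5.85 FPKM in mutant cells, against 10.1 FPKM in wild-type cells, 1.73-fold lower, with a q-value of 0.0103 in the authors' deposited table. The promoter window of Gsta3 held the antioxidant response element core at bases -121 to -113. Those of Txnip and Akr1b8 did not, and neither did that of the classical target Nqo1. Sequence beyond the windows was not searched. Hmox1, which encodes the heme-degrading enzyme heme oxygenase, was at 47.8 FPKM in mutant cells and 61.5 FPKM in wild-type cells and was not called. Ephx1, an epoxide hydrolase, was at 3.35 FPKM in mutant cells and 2.14 FPKM in wild-type cells, and Blvrb, a biliverdin reductase, at 58.1 and 46.1 FPKM in mutant and wild-type cells. The cystine transporter gene Slc7a11 was near 0, at 0.0832 FPKM in mutant cells and 0.106 FPKM in wild-type cells. Targets thus lay on both sides of wild type.

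Glutathione S-transferases lay on both sides of wild type as well. Of 24 glutathione S-transferase genes listed 18 were kept, and Gsta3 was the 1 called. Over the whole table, calls for lower RNA made up 0.461% of genes with a q-value under 1. Nothing is read from 1 call. Gstp2 was at 9.49 FPKM in mutant cells and 16.2 FPKM in wild-type cells, with a q-value of 0.0782 in the authors' deposited table, but it shares 64.3% of its 50-base stretches with Gstp1, at 36.1 and 39.7 FPKM in mutant and wild-type cells, and its value is uncertain. Gsta4 was at 595 FPKM in mutant cells and 741 FPKM in wild-type cells. In the mu class 5 of 7 genes lay above 0, among them Gstm1 at 72.4 FPKM in mutant cells and 59.3 FPKM in wild-type cells and Gstm3 at 4.79 and 3.05 FPKM in mutant and wild-type cells, none of them called.

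Glutathione synthesis and recycling held no call among 12 genes, with Gss, glutathione synthetase, at 17.8 FPKM in mutant cells and 21.9 FPKM in wild-type cells, and a median of -0.03 over the 8 kept. Glutathione peroxidases held no call among 8 genes, with Gpx3 at 2.72 FPKM in mutant cells and 3.93 FPKM in wild-type cells and Gpx2 at 84.4 and 74.96 FPKM in mutant and wild-type cells. The 4 glutaredoxins were not called, with Glrx3 at 112 FPKM in mutant cells and 133 FPKM in wild-type cells and Glrx at 29.0 and 24.8 FPKM. Superoxide dismutases and catalase held no call among 5 genes, and the 4 kept lay between -0.15 and -0.04.

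Selenoproteins include Txnrd1 and several glutathione peroxidases, which need dedicated factors to insert selenocysteine. None of 8 genes for that machinery was called, and their median was -0.0050. Sepsecs, which completes selenocysteine on its tRNA, was at 5.32 FPKM in mutant cells and 4.04 FPKM in wild-type cells. Of 9 other selenoprotein genes listed none was called. With 0.718% of genes with a q-value under 1 called over the whole table, nothing is read from either count. Selm was at 9.63 FPKM in mutant cells and 15.3 FPKM in wild-type cells, with a q-value of 0.128 in the authors' deposited table, and Sepw1 at 154 and 192 FPKM in mutant and wild-type cells.

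**Figure D5:**
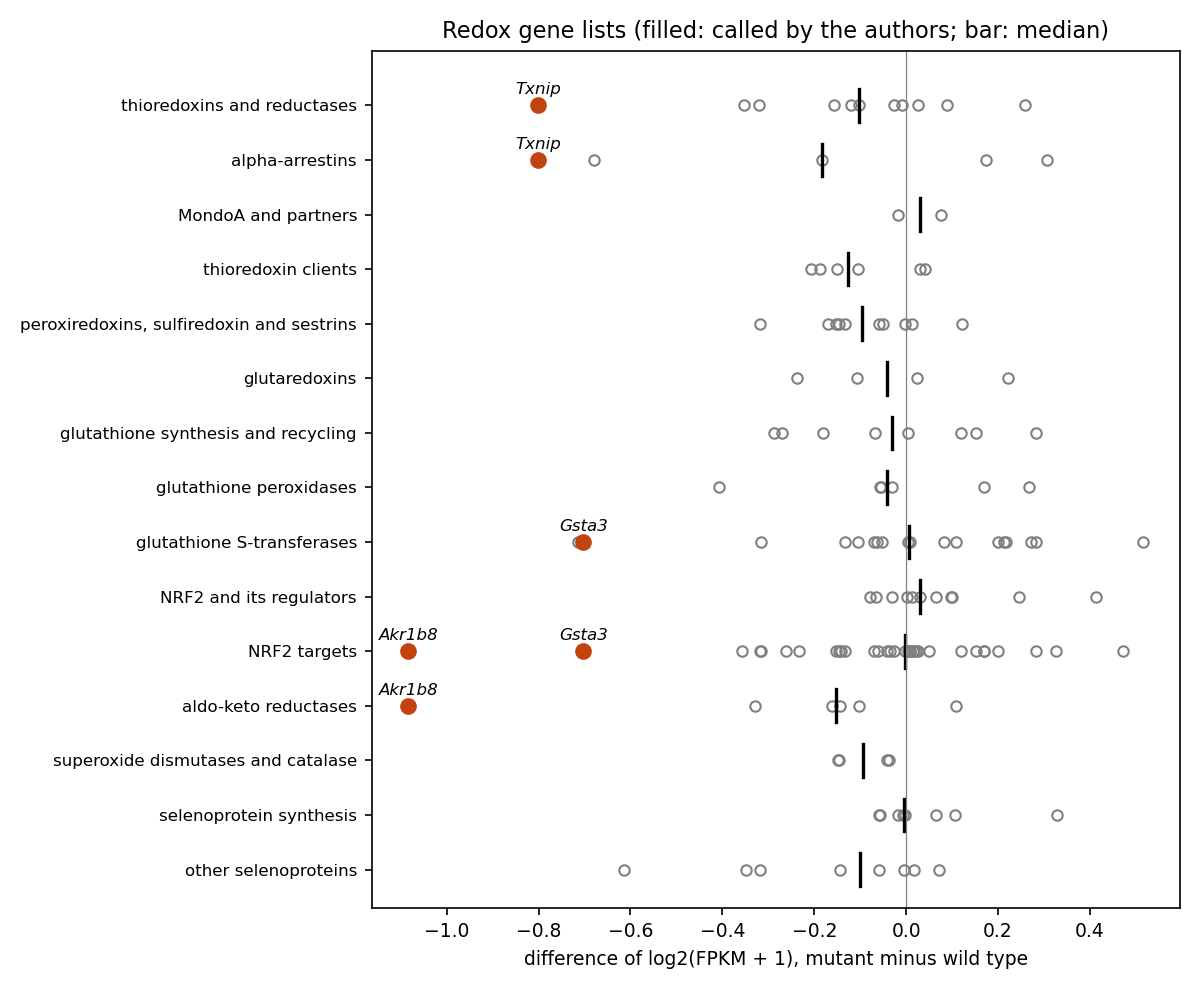
Change in log2(FPKM + 1) of mutant relative to wild-type cells for each gene kept in 15 redox lists (open circles, not called; filled circles, called by the authors; black bars, list medians). Calls are limited to Txnip, Akr1b8 and Gsta3, some of which stand in more than 1 list, and the list medians lie between -0.18 and 0.03.

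Taking the 15 lists as 1 set, 162 genes were listed and 124 kept. The authors called 3 of the 162, all lower in mutant cells, and 2 of these are members picked from this contrast. Calls over the whole table were 0.718% of genes with a q-value under 1, while the 162 include 38 genes below the filter on low values, 9 of them at 0 in both genotypes. The median difference of the 124 was -0.03, with 52 above 0 and 72 below, against 5343 above and 5423 below among all genes kept. Quantile normalization raised abundant genes, such as Prdx1 from -0.15 to -0.09 and Txn1 from 0.03 to 0.08. It was not run on this set, so nothing is read from the tilt.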

How the data were processed

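The authors deposited 1 table with an FPKM value per gene for mutant and for wild-type cells, each over 2 libraries, together with a log2 ratio of mutant to wild type, a q-value and a call of significance, per the file headers. The tools named in the submitters' processing notes are TopHat2 2.1.0, bcl2fastq 2.17.1.14 and Cufflinks, with genome mm9. The Cufflinks version, the annotation and the test behind the q-value are not stated in those notes, the labels or the headers. All genes called have a q-value under 0.05. Unadjusted p-values and values per library were not analysed here, so the limma fit planned for values per lot was not run.

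Differences of log2(FPKM + 1) and list medians were computed with Python 3.11.15, pandas 2.3.3 and numpy 2.4.6 over genes whose mean reached 1 FPKM; this scale understates changes of low genes. Folds of single genes are plain FPKM ratios. The members and lists were chosen with earlier results of these data known. Named genes are the members, Chd2, called genes of each list, up to 4 uncalled genes per list with the largest differences, and close paralogs, with a few further list genes named for their role after their values were seen. The carbohydrate response element form was added after the values were seen. Promoters came from RefSeq (GRCm38.p6), with all 10 members matched by symbol. Transcripts for the count of shared 50-base stretches came from GENCODE M21. The difference and the motif search were tested on simulated data.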

Additional observations from a re-analysis of the deposited data

How the results depend on the processing

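With 1 value per genotype, leaving out a lot could not be run. No paired analysis was possible because the deposited values are not split by lot. Txnip ranged from -0.83 to -0.78 and Akr1b8 from -1.15 to -1.08 under other pseudocounts (0.1 and 0.5), upper quartile scaling, quantile normalization and a median set to 0. In those settings all 50 member values stayed within 0.1, or for called genes within 1.5 times, of the reported ones. Upper quartile scaling and the median set to 0 could hardly move a value. Under them the median over all genes kept was -0.0050 and 0, against -0.0012 as reported. Txn2 and Txnrd1 turned to 0.05 and 0.03 under quantile normalization, as did the members' median, to 0.04, and that of the NRF2 targets, to 0.01. In all, the medians of 7 lists, the members included, changed sign in at least 1 setting. Of 112 list medians 111 stayed within 0.1, a tolerance wider than most of the medians themselves, and that of the aldo-keto reductases was -0.04 without the filter on low values. Counting calls with a log2 fold change of 1 or more in size left 1 call among the members and 1 among NRF2 targets, both Akr1b8, and 0 among thioredoxins and reductases, alpha-arrestins and glutathione S-transferases; this is a subset by construction. A q of at most 0.02, or a mean of at least 5 FPKM, changed no count of calls in any list. Neither could, since the called genes Txnip, Akr1b8 and Gsta3 share a q-value of 0.0103 in the authors' deposited table. Their means were 26.8, 17.3 and 7.99 FPKM. Differences under the spread between libraries cannot be recognised here, since that spread is unknown.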

Other observations

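Genes of the integrated stress response, which shares targets with NRF2, were not called. Nothing is read from that, with 0.718% of genes with a q-value under 1 called over the whole table. Atf4, its transcription factor, was at 137 FPKM in mutant cells and 114 FPKM in wild-type cells. Its targets Asns and Trib3 were at 118 and 7.90 FPKM in mutant cells and at 103 and 6.85 FPKM in wild-type cells. Ddit3 and Chac1 lay on the other side, at 3.43 and 0.931 FPKM in mutant cells and at 5.22 and 1.33 FPKM in wild-type cells. The heat shock gene Hspa1b was at 2.097 FPKM in mutant cells and 2.088 FPKM in wild-type cells. Of the 7 genes in the stress list 5 were kept.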
